A study of Mus musculus with 99 samples.

Results

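The 9 genes described here are expressed in the projection neurons of the striatum, which make up most neurons of the nucleus accumbens (NAc). They were chosen by name as genes of striatal signalling (Ppp1r1b, Adora2a, Rgs9, Pde10a, Gnal and Rasd2) and of striatal neuron identity (Rarb, Foxp1 and Isl1). Each was found by its mouse GENCODE symbol, and the 9 stood among 55335 gene identifiers counted in every library. All 9 were tested in NAc, the ventrobasal thalamus (VBT) and the ventral tegmental area (VTA). In the prelimbic cortex (PrL) and the primary somatosensory cortex (S1), 8 were tested, because Isl1 did not pass the filter on low counts there.

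The study measured bulk RNA of tissue punches from 5 brain areas of juvenile wild-type offspring of C57BL/6 dams. The fentanyl groups came from dams given 10 µg/ml fentanyl in their drinking water, starting at embryonic day 0 and ending when pups were weaned. The control groups are labelled water. Region, sex and treatment gave 20 groups, 19 of them with 5 libraries and 1 (S1 male water) with 4. The labels do not name the litter or the animal of a punch, so p-values measure only the spread between these libraries, which may share dams. In a punch, fewer cells of a type and less RNA per cell cannot be told apart.

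Of 99 libraries 98 were kept. VTA male water 3, in which 6333 genes were detected, was left out. Totals over genes were 23032078 to 52069639 counts in the kept libraries and 23032078 to 45360396 in NAc. In NAc, 6 of 7 listed markers of indirect-pathway projection neurons were among the files' symbols and summed to a median of 1201 CPM (counts scaled to a library total of 1000000). The 5 thalamic markers summed to at least 1349 CPM in every VBT library and to at most 130 CPM in NAc.

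Striatal projection neurons receive dopamine from the midbrain and glutamate from cortex and thalamus. They form a direct pathway, marked by the D1 dopamine receptor, and an indirect pathway, marked by the D2 receptor and an adenosine receptor. The D1 receptor and the adenosine receptor act through the G protein alpha subunit Golf and cyclic AMP on the phosphoprotein DARPP-32. Retinoic acid receptors and other transcription factors establish and keep the cells' identity.

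Promoter sequences of the members are shown for the retinoic acid receptor gene Rarb and for Isl1, because Rarb holds the one retinoic acid motif found among the members and Isl1 is the member that varied least with the others. They come from the RefSeq table for GRCm38.p6, read 5′ to 3′ on the gene's own minus strand from 250 bases before to 50 bases after the start. Capitals mark motif matches. Rarb lies at chr14:16575427-16575726 and Isl1 at chr13:116309639-116309938.
Rarb: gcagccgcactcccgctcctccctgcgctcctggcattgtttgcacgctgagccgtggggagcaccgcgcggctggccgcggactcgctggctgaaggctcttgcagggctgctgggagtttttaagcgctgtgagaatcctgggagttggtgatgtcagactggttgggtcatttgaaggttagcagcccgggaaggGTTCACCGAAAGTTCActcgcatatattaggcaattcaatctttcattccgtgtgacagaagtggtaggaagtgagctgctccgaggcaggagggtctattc
Isl1: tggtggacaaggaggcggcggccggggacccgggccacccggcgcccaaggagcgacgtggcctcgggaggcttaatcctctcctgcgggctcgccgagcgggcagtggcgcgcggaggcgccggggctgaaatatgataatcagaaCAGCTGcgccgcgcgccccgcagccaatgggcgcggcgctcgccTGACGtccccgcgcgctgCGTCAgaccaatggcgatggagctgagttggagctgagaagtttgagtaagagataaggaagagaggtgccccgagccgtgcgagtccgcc

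In Rarb the capitals are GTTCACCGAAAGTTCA, a direct repeat of the kind retinoic acid receptors are known to bind, which begins 52 bases before the start. The search took GGTCA or GTTCA, then 6 bases, then GGTCA or GTTCA, on both strands, and matched 81 of 32851 promoters (0.247%). In Isl1 the capitals are the E-box CAGCTG, found in 16.3% of promoters, and TGACG or its reverse complement CGTCA, the core of the cAMP response element, found in 20.8%. The table gave 9 promoters for 6 members. E-box matches also lay in Rgs9 and Pde10a promoters and a TGACG match in a Foxp1 promoter, and the whole element TGACGTCA, in 1.79% of all promoters, had no match among the 9. These matches describe letters, and binding was not measured here.

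All 9 genes were higher in NAc than in the mean of the other 4 regions among water libraries (edgeR quasi-likelihood test, adjusted p under 0.05 for each). Among all genes, 28.5% were called higher in that comparison. The median log2 difference was 3.50 for the members and -0.02 for all genes. Since the members were picked as striatal genes, the count describes them and does not test the choice.

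The signalling genes differed in how far NAc stood above the next region, by 2.02-fold in mean CPM for Gnal, 3.45-fold for Rasd2 and more for the other 4. Ppp1r1b (chromosome 11, 98348404 to 98357796), which encodes DARPP-32, had 700 ± 217 CPM in NAc (SD, n = 10), from 413 to 1082. Its levels were 78.4 ± 93.5 in VBT (n = 10), 71.0 ± 9.36 in S1 (n = 9), 26.6 ± 4.27 in PrL (n = 10) and 24.6 ± 4.83 in VTA (n = 9). The ranges of VBT and S1 overlapped, as did those of PrL and VTA.

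Adora2a (chromosome 10, 75316877 to 75334784), the adenosine receptor gene of the indirect pathway, had 155 ± 53.2 CPM in NAc and 14.0 ± 19.3 in VBT. Its means in PrL, VTA and S1 were between 2.47 and 2.76 CPM, with overlapping ranges. Rgs9 (chromosome 11, 109225355 to 109298129), a regulator that speeds the shut-off of G proteins, had 320 ± 103 CPM in NAc. It was at 26.0 ± 6.23 in VTA, 24.3 ± 35.4 in VBT, 13.1 ± 2.60 in PrL and 8.81 ± 1.17 in S1, and each of these 4 ranges overlapped the next.

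Pde10a (chromosome 17, 8525372 to 8986648), a phosphodiesterase that breaks down cyclic nucleotides, had 808 ± 204 CPM in NAc against 135 ± 72.5 in VBT. The other 3 means were between 56.1 and 75.2 CPM. Rasd2 (chromosome 8, 75213944 to 75224113), which encodes the small GTPase Rhes, had 298 ± 62.8 CPM in NAc. Its next means, 86.4 ± 10.9 in S1 and 85.9 ± 40.1 in VBT, overlapped.

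Gnal (chromosome 18, 67088216 to 67226792), the gene of Golf alpha, was expressed in every region. It had 762 ± 140 CPM in NAc, 377 ± 26.8 in VBT, 197 ± 24.1 in PrL, 190 ± 14.7 in VTA and 153 ± 6.11 in S1. NAc stood apart from VBT and VBT from PrL, with no overlap of ranges. Of the 11172 exon bases of Gnal, 852 are shared with other genes, and 1 of the genes that overlap it on the same strand is Chmp1b.

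The transcription factor genes differed in how far they marked NAc. Rarb (chromosome 14, 16430839 to 16819156) had 98.9 ± 26.8 CPM there and 6.99 to 11.7 on average elsewhere. Of its 5265 exon bases, 2020 are shared with Top2b and Gm48162 on the other strand. The strand setting of the counting is not given in the sources used here. It is therefore not known whether reads on these bases were counted for Rarb or left unassigned as ambiguous. Shared exon bases also number 460 of 2928 in Ppp1r1b and 435 of 13751 in Foxp1. Foxp1 (chromosome 6, 98925338 to 99522721), a forkhead factor also found in cortical neurons, had 248 ± 50.2 CPM in NAc, 169 ± 17.2 in S1 and 122 ± 13.2 in PrL. The NAc and S1 ranges of Foxp1 overlapped, and the log2 difference between them was 0.47 ± 0.13 (SE; edgeR, adjusted p = 0.00194). VBT and VTA, at 45.8 ± 16.2 and 40.6 ± 3.22 CPM, were lowest.

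Isl1 (chromosome 13, 116298281 to 116309689), a homeodomain factor known in direct-pathway and cholinergic neurons, was near equal in 2 regions. It had 17.1 ± 8.02 CPM in NAc and 14.5 ± 5.72 in VBT, with overlapping ranges. The difference was 0.08 ± 0.28 on the log2 scale (edgeR, adjusted p = 0.822). In VTA its mean was 0.224 CPM, and PrL and S1 had at most 1 and 6 counts in a water library, so no fold is given against them.

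By single regions, all 9 genes were called higher in NAc than in PrL, S1 and VTA, and 8 of 9 than in VBT. The shares of all genes called higher were 24.8%, 26.4%, 30.1% and 33.7%, in that order of regions. On a scale of CPM per kilobase of exon, the water NAc means ran from 239 for Ppp1r1b through 93.8 for Rasd2, 68.2 for Gnal, 62.9 for Pde10a, 50.7 for Adora2a and 50.1 for Rgs9 to 18.8 for Rarb, 18.03 for Foxp1 and 4.32 for Isl1.

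**Figure D1:**
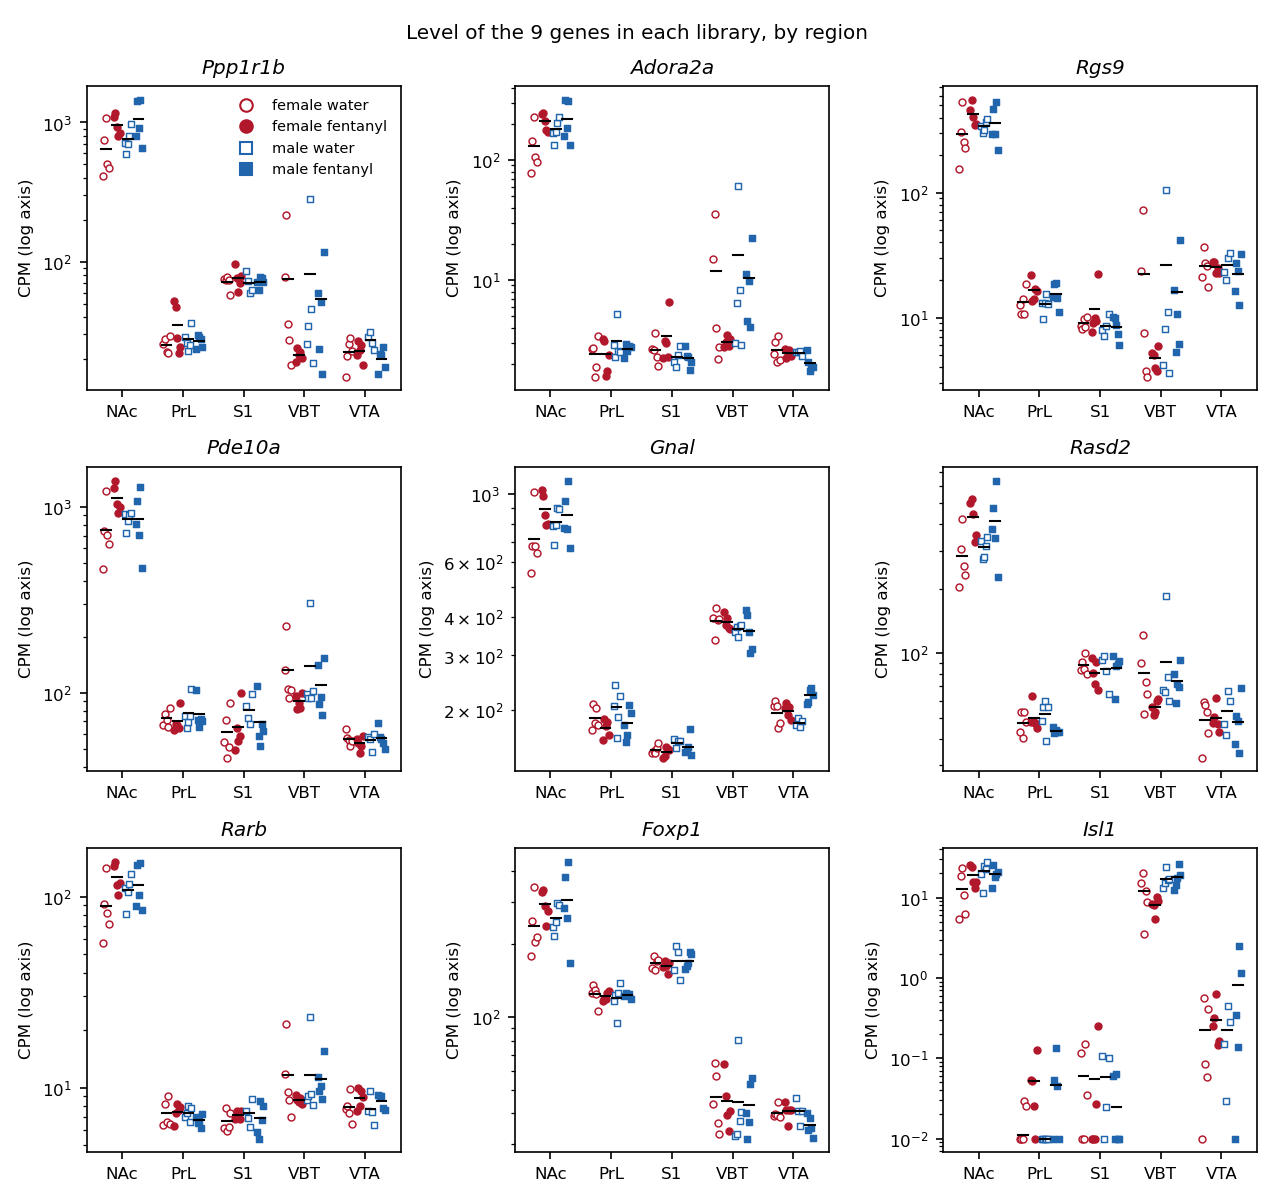
Level of each gene in CPM (log axis) in every kept library, by region. Open symbols are water and filled ones fentanyl, circles are females and squares males, bars are group means, and values under the lowest tick of Isl1 are drawn on it. Every gene's water mean is highest in NAc, Isl1 is nearly as high in VBT (17.1 and 14.5 CPM), and single VBT libraries reach 284 CPM of Ppp1r1b.

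Within NAc the 9 genes varied together. Over the 20 libraries, with the mean of each sex and treatment group removed, all 36 pairs were positively correlated in log2(CPM + 1). Pearson's r ran from 0.577 to 0.990 with a median of 0.927 (permutation tests with 100000 resamples, 36 of 36 pairs with adjusted p under 0.05 for r and for Spearman's rho). Ppp1r1b and Adora2a were the closest pair, with r = 0.990 and rho = 0.987 (permutation p = 1e-05 each, the smallest these resamples can give, adjusted p = 1.24e-05). Without the 2 libraries farthest from the median of Ppp1r1b, r was 0.984.

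Isl1 was the most loosely tied member. Its 8 pairs had r from 0.577 (Foxp1) to 0.837 (Rarb), while the 28 pairs of the other 8 genes had 0.883 to 0.990. In the 10 male libraries alone, the Isl1 pairs had r of 0.195 to 0.693 and 1 of 8 passed, and in the 10 females 0.850 to 0.949 and 8 of 8 passed. In the 10 fentanyl libraries 1 of 8 passed and in the 10 water libraries 8 of 8. The differences between these subsets were not tested. Without the 2 libraries farthest from the median of the other gene, the Isl1 pairs had r of 0.532 (Rgs9) to 0.851 (Rasd2), that with Foxp1 being 0.844.

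**Figure D2:**
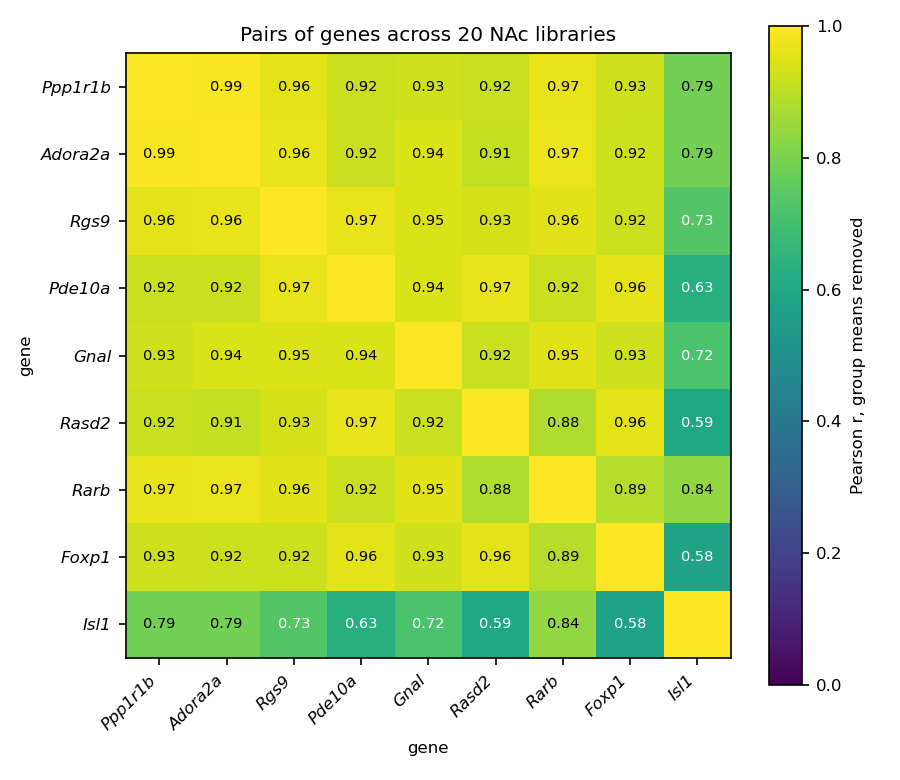
Pearson's r of log2(CPM + 1) for each pair of genes across 20 NAc libraries after removal of group means. Both axes list the 9 genes and the colour runs from 0 to 1. The Isl1 row holds the lowest values, 0.58 to 0.84, and Ppp1r1b with Adora2a the highest, 0.99.

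The levels went down as a score of cortical neuron genes went up. The score is the mean log2(CPM + 1) of 6 marker genes of cortical glutamatergic neurons, among them the vesicular glutamate transporter gene Slc17a7 and the transcription factor gene Neurod6. All 9 members were negatively correlated with it, with r from -0.841 (Rarb) to -0.666 (Isl1), and each had adjusted p under 0.05 (permutation test, 36 relations with 4 scores). In the 10 male libraries alone 8 of 9 passed, with r from -0.906 to -0.506. With the scores of direct-pathway and indirect-pathway markers, r was 0.825 to 0.969. With the glial score it was -0.360 to -0.261, and none passed. Given the cortical score, the 36 pairs had partial r from 0.141 to 0.971 and 31 passed, 3 of the 8 with Isl1.

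**Figure D3:**
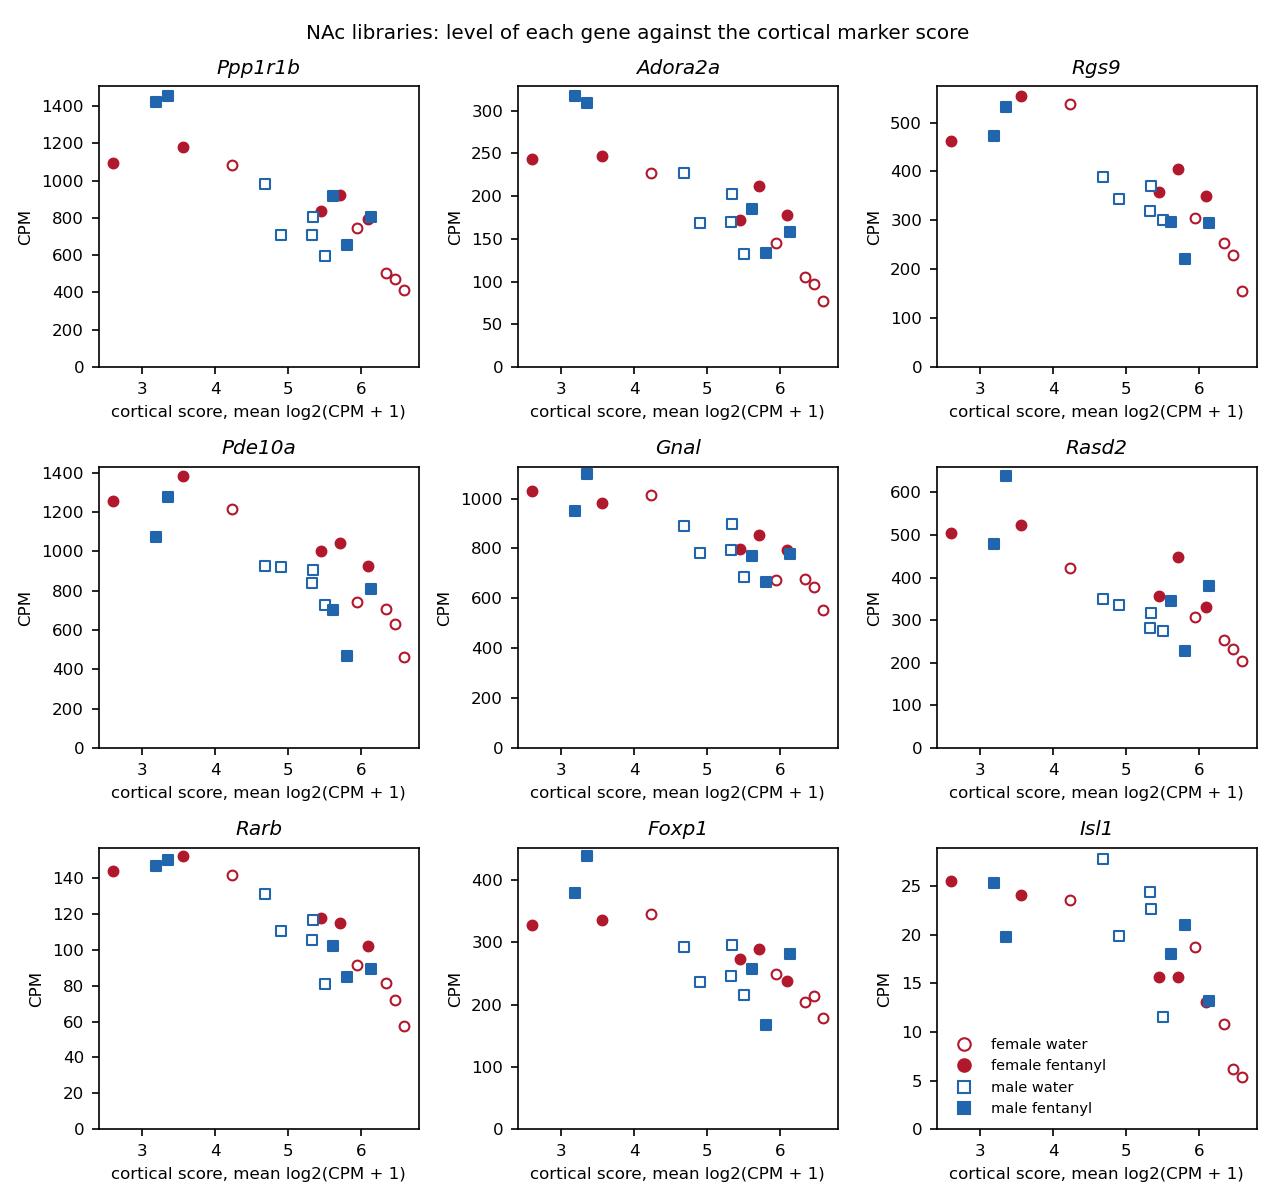
Level of each gene in CPM against the cortical score, the mean log2(CPM + 1) of 6 marker genes, in 20 NAc libraries. Open symbols are water and filled ones fentanyl, circles females and squares males. The 5 libraries of lowest score, up to 4.23, hold the 5 highest levels of 7 genes (all but Rasd2 and Isl1), and female water 1, with the highest score of 6.59, has the lowest level of 8 genes (all but Foxp1).

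Outside the list, the genes whose levels were most like each member's were ranked by r. Among 11986 genes with a mean of at least 5 CPM in NAc, Pde1b, a calmodulin-dependent phosphodiesterase, had the highest r with Ppp1r1b (0.988), Adora2a (0.985) and Rgs9 (0.977). Strn led for Pde10a (0.977), Kcnab1 for Gnal (0.979), Actn2 for Rasd2 (0.974), Drd2 for Rarb (0.976), Scn4b for Foxp1 (0.972) and Sdc2 for Isl1 (0.950). Averaged over the 9 members, the highest were the D1 receptor gene Drd1 (0.943), the D2 receptor gene Drd2 (0.939) and Pde1b (0.939). These are correlations over the same 20 libraries, which share dissection and depth, and are given as a ranking with no test.

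Perinatal fentanyl was compared with water in each sex. In NAc no member was called in either sex, in the mean of both sexes or in the test of a sex difference. Among all genes 0% were called in females and 0.662% (129 of 19480) in males. The mean of both sexes gave 0% and the sex difference 0%. At an unadjusted p under 0.05 stood 6 members for females, 0 for males, 4 for the mean of both and 0 for the sex difference, against 9.04%, 17.6%, 12.03% and 15.2% of all genes.

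Adora2a had the largest difference in females. Its fentanyl libraries had 244, 247, 212, 178 and 173 CPM and its water libraries 77.2, 145, 227, 106 and 96.7. Water library 3 lay among the fentanyl values and the other 4 lay below all of them. The log2 fold change was 0.69 ± 0.28 (SE; edgeR, adjusted p = 0.544).

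Ppp1r1b had 1093, 1179, 923, 795 and 839 CPM in fentanyl females and 413, 746, 1082, 502 and 470 in water females. Again water library 3 was the only one inside the fentanyl range. The difference was 0.59 ± 0.25 (edgeR, adjusted p = 0.544). Rasd2 differed by 0.61 ± 0.23, Pde10a by 0.58 ± 0.24, Isl1 by 0.55 ± 0.35, Rgs9 by 0.53 ± 0.27, Rarb by 0.51 ± 0.21, Gnal by 0.32 ± 0.14 and Foxp1 by 0.30 ± 0.21, with adjusted p of 0.544 to 0.654. Without female water 3, Rgs9 was at 0.84, Isl1 at 0.87 and Foxp1 at 0.45, and without female water 1 Isl1 was at 0.36. The median over members was 0.55, against 0.00 over all genes. Groups overlapped for each of the 9. The share of reads outside exons was 18.03% in female water 3, the highest of the kept libraries, and 11.8% in female water 1, the lowest in NAc, against 14.5% to 15.7% in the fentanyl females. With this share as a covariate Ppp1r1b and Rasd2 were called in the mean of both sexes (edgeR, adjusted p = 0.0377 and 0.0264).

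In males, Ppp1r1b had 806, 1423, 919, 1455 and 653 CPM with fentanyl and 707, 594, 706, 804 and 980 with water, a difference of 0.52 ± 0.25 (edgeR, adjusted p = 0.303). Fentanyl libraries 2 and 4 were above every water library and the other 3 were within the water range. The member differences ran from -0.09 (Isl1) to 0.52 (Ppp1r1b), with a median of 0.12 against -0.01 over all genes. Male minus female differences were -0.64 to -0.01, and adjusted p was at least 0.481.

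The cortical score moved with these values. In females it was 5.91 ± 0.97 with water and 4.69 ± 1.51 with fentanyl, and in males 5.15 ± 0.34 and 4.82 ± 1.42 (SD, n = 5). Its 6 genes, none at 0 throughout, summed to a median of 1110 CPM (269 to 1504) in water females and 624.6 (59.5 to 901) in fentanyl females. In males the medians were 559 (391 to 784) and 722 (97.4 to 838). The 5 markers of cholinergic interneurons, which also express Isl1, summed to a median of 29.2 CPM (24.6 to 77.8) in water females and 58.0 (46.9 to 87.3) in fentanyl females, and to 57.3 and 56.1 in males. Their part in the result was not tested. With the cortical score as a covariate, the female differences of the members were 0.05 (Foxp1) to 0.39 (Adora2a) and the male ones -0.20 (Isl1) to 0.36 (Ppp1r1b), and none was called.

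**Figure D4:**
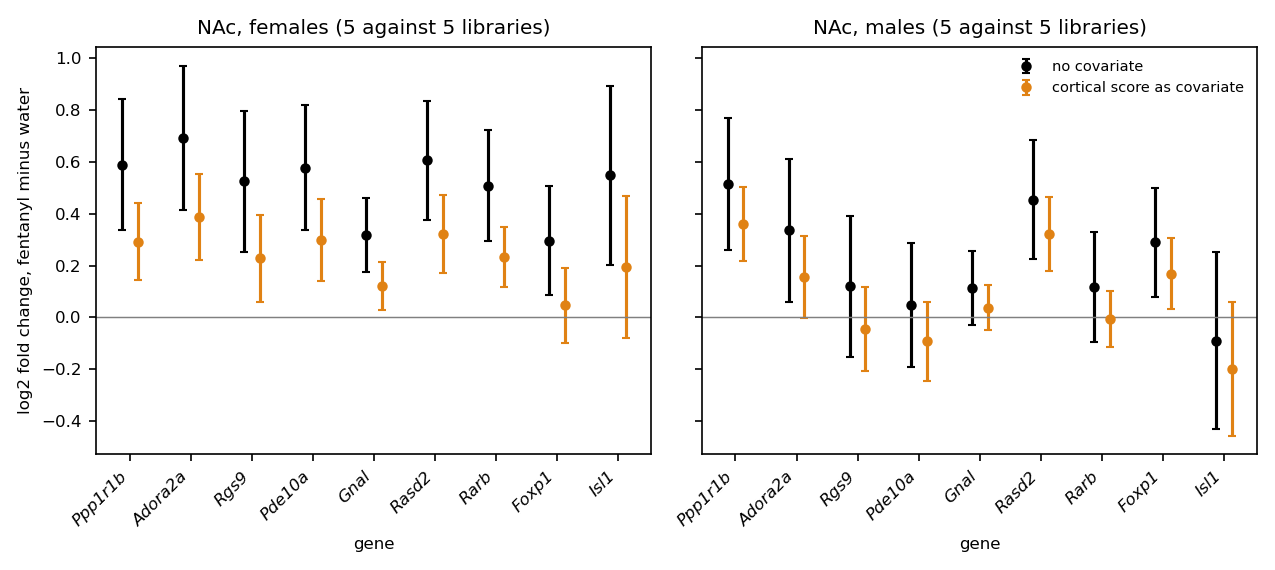
Log2 fold change of fentanyl over water for each gene in NAc females and males (5 against 5 libraries), with standard errors as bars, without (black) and with (orange) the cortical score as a covariate. All 9 female values are above 0 in both fits, and the median female value is 0.55 without and 0.23 with the score.

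Other genes of the same pathways were taken from 3 lists. Of 30 dopamine, adenosine and cAMP signalling partners 29 were tested, and 20 were higher and 6 lower in NAc than in the other regions, where 28.5% of all genes were higher and 30.6% lower. With fentanyl none was called in females, where 0% of all genes were, and 1 in males, where 0.662% were. An unadjusted p under 0.05 was reached by 15 in females and 7 in males, against 9.04% and 17.6% of all genes, with negative changes for Gnas in females (-0.46) and Drd3 in males (-0.51). The median log2 fold change was 0.27 in females and 0.18 in males. In NAc males the 4 markers of septum and islands of Calleja, Drd3 among them, summed to a median of 42.9 CPM (31.8 to 110) with fentanyl. With water it was 73.2 (58.3 to 197), and in females the medians were 62.2 with fentanyl and 54.9 with water. The part of the other markers in the Drd3 change was not tested. The partner called in males was Arpp19, a cAMP-regulated phosphoprotein that inhibits a phosphatase, at 455 ± 120 CPM with fentanyl and 294 ± 18.5 with water. Its change was 0.67 ± 0.15 (edgeR, adjusted p = 0.0475), and it was called in 4 of the 20 fits that left out 1 library, with changes of 0.56 to 0.83 and adjusted p of 0.00123 to 0.129. Of 12 fits that did not leave out 1 library, this one and the fit of males alone included, 7 called it. Their changes were 0.57 to 0.81 and adjusted p 0.00302 to 0.193 over the 12. With the replicate number as a block the adjusted p was 0.131. Drd2 (0.67 ± 0.23, adjusted p = 0.544) and Prkacb, a catalytic subunit of protein kinase A (0.24 ± 0.09, adjusted p = 0.544), had the smallest p in females.

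Of 16 identity transcription factors 12 were higher in NAc than in the other regions and 0 lower, against 28.5% and 30.6% of all genes. None was called with fentanyl. An unadjusted p under 0.05 was reached by 6 in females, of which Mef2c was negative (-0.57), and by 1 in males, again against 9.04% and 17.6% of all genes. Medians were 0.35 in females and 0.06 in males. Smallest p values were those of Meis2 (0.30 ± 0.11) and Foxo1 (0.49 ± 0.18) in females and Egr3 (0.53 ± 0.18) and Ebf1 (0.35 ± 0.20) in males, with adjusted p of at least 0.124 (edgeR). Of 16 retinoic acid pathway genes 9 were higher and 4 lower in NAc, against the same shares of all genes. Rxrg, a retinoid receptor gene, is in this list and in that of transcription factors. None was called with fentanyl, and 4 in females and 2 in males had an unadjusted p under 0.05, the male count being a smaller share than the 17.6% of all genes, with medians of 0.14 and 0.00. Rxra (0.24 ± 0.09) and Rarg (0.29 ± 0.12), both nuclear receptor genes, led in females. Stra6, the receptor through which cells take up retinol, had 11.5 ± 4.53 CPM with fentanyl and 21.8 ± 6.15 with water in males (-0.89 ± 0.26, adjusted p = 0.0904), and Crabp1, a retinoic acid binding protein gene, differed by 0.58 ± 0.25.

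Because the members move together, their ratios within a library were also compared, a step chosen after their values were seen and after 1 ratio, Ppp1r1b to Pde10a, had been looked at. Over the 36 pairs in each sex (72 exact permutation tests, two-sided), no ratio differed between fentanyl and water after adjustment, and the smallest adjusted p was 0.0714. The smallest exact p that 5 against 5 allows is 0.00794. It was reached by 8 of the 72 tests, and 12 would have had to reach it for any to pass, so the adjusted result says little about whether ratios differed.

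The male minus female difference in the ratio change was then tested for the 36 pairs, and 2 passed. The test exchanged treatment labels within each sex in all 63504 ways. Its null is no change in either sex, so a small p does not by itself show that the sexes changed unequally. Pde10a to Foxp1 was 3.84, 4.12, 3.60, 3.90 and 3.66 in fentanyl females and 2.59, 2.98, 3.52, 3.45 and 2.96 in water females. In males it was 2.87, 2.83, 2.72, 2.91 and 2.79 with fentanyl and 3.89, 3.37, 3.40, 3.07 and 3.18 with water. Every fentanyl library was above every water library in females and below every one in males. The cortical score of the same female libraries was 4.69 ± 1.51 with fentanyl and 5.91 ± 0.971 with water (SD, n = 5), with overlapping ranges, and female water 1 had both the highest score and the lowest ratio. In males it was 4.82 ± 1.42 with fentanyl and 5.15 ± 0.342 with water. Its part in the ratio was not tested. The log2 ratio changed by 0.31 in females and -0.25 in males, a difference of -0.56 (exact permutation p = 3.15e-05, adjusted over 36 pairs 0.00113).

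Ppp1r1b to Adora2a was 4.59 ± 0.22 with fentanyl and 4.97 ± 0.26 with water in females (SD, n = 5), which overlapped. In males it was 4.84 ± 0.24 with fentanyl and 4.22 ± 0.19 with water, which did not. The changes differed by 0.31 on the log2 scale (exact permutation p = 0.000409, adjusted 0.00737). With any 1 library left out, the exact p of these differences stayed at or below 0.000882. In male NAc the trend of a library's expression with exon length also moved, from 0.13 ± 0.19 with water to -0.22 ± 0.17 with fentanyl (Spearman's rho across genes of the deviation from the region's mean, exact permutation p = 0.0318). Its part in the ratios was not tested. Pde10a and Foxp1 are at the 96.8 and 97.4 percentiles of exon length among protein-coding genes, and Ppp1r1b and Adora2a at 41.3 and 43.4.

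In VBT, 3 libraries stood apart from the rest in the members. Female water 2, male water 3 and male fentanyl 5 had the highest indirect-pathway scores there (4.97, 5.38 and 4.68). They also had the 3 lowest thalamic scores (7.99, 7.37 and 8.01) and the 3 highest oligodendrocyte scores (11.8, 12.2 and 11.8), and the first and last had the 2 highest choroid plexus scores (7.98 and 5.11). The part of these in the members' values was not tested. Adora2a had 35.3, 60.8 and 22.5 CPM in them and 2.18 to 15.0 in the other 17. Ppp1r1b had 217, 284 and 118 CPM in them against 15.6 to 77.9.

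The members' slopes on Adora2a over all VBT libraries were set beside their ratios to Adora2a in NAc. Over 20 VBT libraries, Ppp1r1b went up by 4.87 CPM per CPM of Adora2a (4.57 to 5.66 with 1 library left out), and its median ratio to Adora2a in NAc was 4.73. The VBT slope and NAc ratio were 1.83 and 1.94 for Rgs9 and 2.09 and 2.06 for Rasd2. For Pde10a they were 3.78 and 5.15, the slope lying inside the range of the ratio over NAc libraries (3.38 to 6.67). For Foxp1 (0.678 and 1.43) and Rarb (0.296 and 0.614) the slope lay below that range, and for Isl1 (0.238 and 0.0976) above it. Gnal had a slope of -0.917 against a ratio of 4.54. The ranges of Adora2a differ between the regions, so slopes and ratios are descriptions.

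Against the score itself, 8 members had r from 0.653 (Isl1) to 0.954 (Rgs9) and Gnal -0.531, each with adjusted p under 0.05 (permutation test, n = 20, family of 9). Without the 2 libraries farthest from the median, r was 0.402 for Foxp1 and -0.392 for Gnal. The highest Isl1 level in VBT, 25.8 CPM in male fentanyl 4, came with an Adora2a level of 4.08 CPM. Isl1 was at 12.4 to 25.8 CPM in the 10 male and 3.47 to 20.5 in the 10 female VBT libraries, a difference that was not tested.

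**Figure D5:**
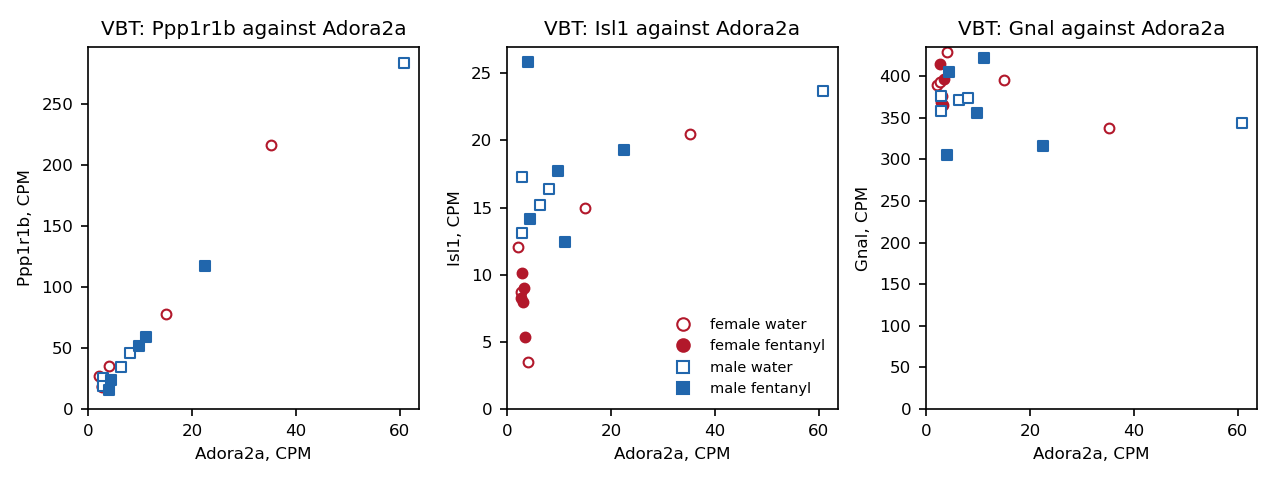
Ppp1r1b, Isl1 and Gnal in CPM against Adora2a in CPM in 20 VBT libraries. Open symbols are water and filled ones fentanyl, circles females and squares males. Ppp1r1b follows Adora2a up to 284 CPM, Isl1 reaches its highest level (25.8 CPM) at a low Adora2a level, and Gnal stays between 306 and 429 CPM.

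No member was called between fentanyl and water in VBT, where 0% of all genes were called in females and 0% in males. In females the differences were -1.80 ± 0.78 for Ppp1r1b, -1.94 ± 0.87 for Adora2a and -2.20 ± 0.99 for Rgs9 (edgeR, adjusted p of 0.571 to 0.604). Without the 3 libraries they were -0.91 ± 0.44, -0.98 ± 0.54 and -1.03 ± 0.56 (adjusted p of 0.652 to 0.705). In males the same 3 genes differed by -0.61 to -0.72 with all libraries and by 0.26 to 0.52 without the 3. In water libraries, leaving out the 2 of them that are water raised the log2 difference between NAc and VBT of Rgs9 from 3.63 to 5.16, that of Adora2a from 3.37 to 4.64 and that of Ppp1r1b from 3.05 to 4.16. The libraries were picked for high indirect-pathway scores, which go up with these genes in VBT, so this rise follows from the choice.

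In the cortical regions no member was called either. All genes called were 0.021% in PrL females, 0% in PrL males, 0.142% in S1 females and 0% in S1 males. Ppp1r1b in PrL females differed by 0.50 ± 0.21 (edgeR, adjusted p = 0.464), with 52.2 and 47.6 CPM in fentanyl libraries 1 and 2, 22.2 to 28.2 in the other 3 and 21.99 to 29.0 in the water libraries. The oligodendrocyte score was 8.15 and 7.41 in those 2 fentanyl libraries and 6.62 to 6.76 in the other 3, and 6.03 to 6.81 in 4 water libraries. In female water 5, with 29.0 CPM of Ppp1r1b, it was 8.12. Its part in the difference was not tested.

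Within a sex, Gnal was the one member called for fentanyl, and VTA males the one group. It had 210, 213, 232, 236 and 224 CPM with fentanyl and 179, 189, 176 and 184 with water, and the groups did not overlap. The change was 0.33 ± 0.07 (edgeR, adjusted p = 0.00317), a 1.26-fold rise, while 22% of all genes (4355) were called in VTA males and 0% in VTA females. Without VTA male water 4 the count of all genes was 2659, and Gnal was at 0.29 to 0.36 with any 1 library left out. In females Gnal differed by 0.01 ± 0.06, and the sex difference was 0.33 ± 0.09 (edgeR, adjusted p = 0.420). In the mean of both sexes in VTA Gnal was the member called, at 0.17 ± 0.05 (edgeR, adjusted p = 0.0116). An unadjusted p under 0.05 was reached there by 35.4% of all genes.

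The VTA male groups also differed in how expression followed GC content. That trend was -0.35 ± 0.19 with fentanyl (n = 5) and 0.61 ± 0.05 with water (n = 4) and did not overlap, so it and the treatment cannot be told apart in these libraries. With the trend as a covariate the Gnal difference was 0.12 ± 0.08 (adjusted p = 0.870), with the exon length trend it was 0.23 ± 0.07 (adjusted p = 0.194), and with VTA male water 3 kept it was -0.08 ± 0.21. All genes called in VTA males were 0 with the GC trend and 4 with the exon length trend, against 4355 without a covariate. Markers of other cell types differed as well. The 6 markers of other striatal interneurons summed to 206 to 299 CPM with fentanyl and 303 to 330 with water, and the 5 cholinergic markers to 8.10 to 112 and 4.18 to 7.01, without overlap. The 5 dopamine neuron markers summed to 323 to 1229 CPM with fentanyl and 859 to 1487 with water. The part of these markers in the Gnal difference was not tested. Gnal lies at the 51.3 percentile of GC content and the 94.9 percentile of exon length among protein-coding genes. Ppp1r1b in VTA males was at -0.40 ± 0.16 (edgeR, adjusted p = 0.0736). Isl1 in the same contrast rested on low values, 0 to 2.49 CPM with fentanyl and 0.0298 to 0.449 with water.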

How the data were processed

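Bulk RNA of 5 brain regions was read in 99 libraries. Per the labels each used the Smart-Seq v4 kit and 10 ng of input. The authors deposited whole-number counts for Ensembl genes without normalization, with HTSeq and GRCm38 named per the submitters' processing notes. The aligner, annotation release, strand setting and HTSeq version are not given in the sources used here. The 5 lines for unassigned reads, 16.2% to 24.0% of reads, were left out of totals. Symbols, positions and exon lengths came from GENCODE M21, which held 55154 of 55335 identifiers. Gpr52 was not matched by symbol.

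CPM are counts scaled to a gene total of 1000000. Each region was fitted with edgeR 4.0.16 (R 4.3.3) by the quasi-likelihood F-test with TMM, filterByExpr and robust dispersions, 1 mean per group of sex and treatment. Benjamini-Hochberg adjustment ran over all genes tested and the threshold was 0.05. Water libraries of all regions shared 1 further fit. Correlations used log2(CPM + 1). Alternatives were DESeq2 1.42.0, limma 3.58.1 (voom), other scalings, filters and covariates, a replicate block and each library left out. Covariates for GC and exon length, the fits without 3 VBT libraries and the ratios were chosen after seeing the data. The members and lists were chosen with earlier results of these data known. Besides the members, the genes named for their values are the closest in correlation and, in each list, called genes or those of smallest p. Gnas, Drd3 and Mef2c were named in addition for negative changes at an unadjusted p under 0.05, and Rxrg for standing in 2 lists. Tests on simulated NAc female counts (19215 genes) recovered 98 of 100 genes changed 2-fold and 75 of 100 changed 1.5-fold, with 9 false calls. Recovery of such changes in the measured NAc libraries, where the members vary together, was not tested. Python 3.11.15, numpy 2.4.6, scipy 1.17.1 and pandas 2.3.3 did the rest. No 2 libraries of a group were duplicates (lowest chi-square per degree of freedom 7.60 over 196 pairs). The reads carry no molecular identifiers that the labels name, so they need not be separate molecules.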

Additional observations from a re-analysis of the deposited data

Results flagged for a closer look

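Single libraries far from the other 4 of their group were flagged by the gap to the nearest library, as a share of the group's range. Of 172 groups of a gene, 21 were flagged, and chance flags about 1 in 20. The genes vary together and 1 library gave 7 of the flags, so the count cannot be set against that share. VBT held 8 of them. VBT male water 3 stood out in 7 genes: Adora2a 60.8 CPM, Foxp1 80.2, Pde10a 306, Ppp1r1b 284, Rarb 23.5, Rasd2 185 and Rgs9 105. VBT female water 2 stood out in Pde10a with 228 CPM.

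In S1 female fentanyl 5, Adora2a had 6.59 CPM against 2.23 to 3.09 in the others and Rgs9 22.5 against 7.72 to 9.97. The same library had the highest oligodendrocyte score in S1 (10.4, the next 9.55) and the highest indirect-pathway score (3.10, the next 2.64), whose part in these values was not tested. In NAc, female water 3 had 1014 CPM of Gnal against 555 to 680. Pde10a was high in PrL female fentanyl 5 (88.1 CPM), PrL male fentanyl 1 (103), PrL male water 5 (105) and S1 male fentanyl 1 (108).

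In PrL male water 3, Adora2a was at 5.17 CPM. That library had the highest PrL scores of olfactory bulb markers (5.66), indirect-pathway markers (3.40) and dopamine neuron markers (2.14) and the lowest of cortical markers (6.94). The olfactory bulb score, over 4 genes, was 4.83 in PrL female water 5, 2.64 in PrL male water 4 and 0.809 to 1.22 in the other PrL libraries. The part of these scores was not tested.

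The other single values were Foxp1 at 44.5 in VTA female water 4, Gnal at 174 in S1 male fentanyl 4, Ppp1r1b at 57.6 in S1 female water 5, Rasd2 at 63.0 in PrL female fentanyl 2 and Rasd2 at 61.1 in S1 male fentanyl 2.

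The change of the Pde10a to Foxp1 ratio in NAc differed between males and females by -0.56 on the log2 scale, and that of Ppp1r1b to Adora2a by 0.31, in exact permutation tests whose null is no change in either sex. Both pairs were among 36 tested after the values were seen.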

How the results depend on the processing

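The counts of members called higher in NAc than in other regions were the same under every alternative run. So were the 0 calls in NAc females, in NAc males, in the NAc sex difference and in PrL, S1, VBT and VTA females and PrL, S1 and VBT males. In the NAc average 2 members (Ppp1r1b and Rasd2) were called with limma-voom and 2 with a covariate for the share of reads outside exons, against 0. In VTA males 2 were called with limma-voom and 2 with that covariate (Gnal and Ppp1r1b), against 1. None (0) was called there with the GC trend, 0 with the exon length trend and 0 with VTA male water 3 kept, and leaving out 1 library gave 1 to 2. In the VTA average limma-voom called Rarb (adjusted p = 0.0391), which the main fit did not. The pairs correlated in NAc passed in 29 to 36 cases.

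Deviations of same-numbered fentanyl and water libraries of a region and sex correlated at -0.446 to 0.478, with 16 of 48 pairs over 0.1. Differently numbered libraries were not compared, nor were regions, so these values cannot show whether equal numbers mark pairs. The main fits do not take the numbers as pairs. With the replicate block 0 NAc members were called in either sex, and the genes called in NAc males went from 129 to 0. That count was 0 to 813 with 1 library left out, 924 with DESeq2, 1512 with limma-voom, 1 with the exon length trend, 546 with the GC trend, 607 with the cortical score, 287 with reads outside exons, 279 at a mean of 50 counts, 75 with no filter and 12 in males alone. DESeq2 also called 16 genes in NAc females, 108 in the average and 462 in the sex difference, and limma-voom 220 in the average and 1302 in the sex difference. Reads outside exons gave 285 in the average and the GC trend 145 in the sex difference.

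Small differences in NAc males changed sign. Rgs9 was -0.0455 with the cortical score and -0.0674 to 0.271 with 1 library left out. Pde10a was -0.0552 with limma-voom, -0.0375 with the replicate block, -0.0795 with the GC trend and -0.0931 with the cortical score, and -0.146 to 0.217 with 1 library left out. Gnal was -0.00637 to 0.207 with 1 library left out. Rarb was -0.00636 with the cortical score and -0.0114 to 0.223 with 1 library left out. Isl1 was 0.151 with reads outside exons and -0.244 to 0.0214 with 1 library left out. In VTA males Gnal was -0.0820 with male water 3 kept. Counts of Isl1 were too low for a test in PrL and S1. The cause of these changes was not tested.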
